A study of Mus musculus with 40 samples.

Results

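The comparison described here sets induced regulatory T cells that had been stimulated again through their antigen receptor (restimulated iTregs) against thymus-derived regulatory T cells that had been activated (activated tTregs, labelled nTreg). It rests on 6 libraries, 3 of each kind, chosen by their labels out of 24 RNA-seq libraries. All mice were on a CD45.2 C57BL/6 background with a fluorescent reporter of Foxp3. tTregs were sorted as CD4+ reporter-positive cells from the spleens of mice 2 to 4 months old. iTregs started from naive reporter-negative splenic CD4+ cells of mice 6 weeks old, were cultured for 4 days on plate-bound anti-CD3 and anti-CD28 with TGF-β and IL-2, were sorted on the reporter, and were rested for 1 day with IL-2 before restimulation on the same antibodies. The study describes the stimulated cells of both kinds as stimulated through the T cell receptor, while the duration for RNA-seq and the antibodies used on tTregs are not given in the sources used here. The 2 groups therefore differ in origin, donor age and culture history, and these cannot be told apart. Resting tTregs, taken without activation, and resting iTregs, taken before restimulation, with 3 libraries each, gave the difference without stimulation. For some genes the values of 3 libraries of activated conventional T cells (Tconvs) are set beside these. Tconvs were sorted from splenic CD4+ cells of mice 2 to 4 months old. How they were activated for RNA-seq is not given in the sources used here. The labels do not say that replicates came from separate animals or cultures, so p-values measure only the spread between these libraries, which may be technical.

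tTregs commit to the regulatory fate in the thymus, under the transcription factor Foxp3, and carry a demethylated, heritable Foxp3 locus. iTregs acquire Foxp3 outside the thymus when naive T cells are stimulated in the presence of TGF-β. Both suppress other T cells through CTLA-4, consumption of IL-2, adenosine and inhibitory cytokines, but iTregs generated in culture are known to lose Foxp3 when stimulated again. A conventional T cell (Tconv) that is stimulated through the receptor activates calcium entry, calcineurin and NFAT together with NF-κB and AP-1, divides, shifts to glycolysis and makes helper cytokines.

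Values are normalized counts, gene counts divided by 1 size factor per library. The restimulated iTreg libraries held 9808711 to 12236928 reads in genes and the activated tTreg libraries 5256800 to 9893053. Replicates were tighter among restimulated iTregs (median SD over genes 0.113 on the log2 scale) than among activated tTregs (0.216). The summed level of 7 genes that define CD4+ T cells, among them Cd3e, Cd4 and Lck, overlapped between the groups, at 32597 to 33975 normalized counts in restimulated iTregs and 32294 to 35242 in activated tTregs. The markers Ms4a1 and Pax5 of B cells, Ncr1 and Klrb1c of natural killer cells and S100a8, S100a9 and Csf3r of neutrophils were at no more than 3 reads in any of the 6 libraries. Klre1 of the natural killer list was at 8.06, 3.36 and 3.63 in restimulated iTregs and had no read in activated tTregs. Ly6g of the neutrophil list was at 51.4, 69.5 and 73.6 in restimulated iTregs, also without a read in activated tTregs. The dendritic cell list of 9 genes summed to 1401 to 1422 in restimulated iTregs and to 90.2 to 147.6 in activated tTregs. In restimulated iTregs this sum came almost wholly from the MHC class II genes H2-Ab1 and Cd74, described further on. Flt3, Siglech, Cd209a and Clec9a were at no more than 3 reads in every library. Zbtb46, a dendritic cell factor of the same list, was at 16.8 to 23.2 in restimulated iTregs and at 44.4 to 69.0 in activated tTregs. The B cell list overlapped between the groups in its sum (115 to 127 and 99.9 to 142), with Ebf1 higher in restimulated iTregs (93.7 against 10.8) and Cd79b higher in activated tTregs (19.3 against 100.1). The 8-gene myeloid list summed to 9.08 to 13.1 and 29.6 to 100.3, and the 4-gene platelet list to at most 7.27 and to 15.1 to 27.2, through Cybb and Itga2b. The part of other cells in the results was not tested.

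Genes were tested where 3 or more of the 6 stimulated libraries reached 10 normalized counts, which left 11104. Of these, 6507 (58.6%) differed between restimulated iTregs and activated tTregs, with 3365 (30.3%) higher and 3142 (28.3%) lower in restimulated iTregs. A gene was called when its Benjamini-Hochberg adjusted p from limma on log2(normalized count + 1) was below 0.05 and its log2 fold change was beyond 0.5 in size. The median log2 fold change over all tested genes was 0.04, and that of its absolute size was 0.70. The 3 libraries of one group lay wholly above or below those of the other for 8086 tested genes (72.8%), so a gene without overlap is common here. Among the called genes 953 were higher by more than 2 on the log2 scale and 559 were lower by more than 2. Since most tested genes were called, each gene list below is read against the shares of 30.3% and 28.3%. A gene that reached 10 normalized counts in 1 group only passed the filter through that group and had little room not to differ. There were 391 such genes in restimulated iTregs and 243 in activated tTregs, and beside each list with 4 or more of them the counts over the other members are given. In bulk RNA, fewer cells of a type and less RNA per cell cannot be told apart, so a level that differs may come from all cells or from some of them.

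The transcripts that define the Treg lineage were mostly lower in restimulated iTregs, and Foxp3 itself was among them. Foxp3, at chrX:7573644-7595245 of mouse build GRCm38, was at 705, 695 and 731 normalized counts in restimulated iTregs and at 7171, 6816 and 7951 in activated tTregs. All 3 restimulated iTreg libraries lay below all 3 activated tTreg libraries, on average 10.3 times lower (log2 fold change -3.36 ± 0.08 SE, adjusted p = 1.66e-11). In activated Tconvs the mean was 33.8, so restimulated iTregs stood between Tconvs and tTregs. Of the exon bases of Foxp3 31.5% also belong to another annotated gene, and the share of its reads that came from that gene was not tested.

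Ikzf2, which encodes the transcription factor Helios of thymic Tregs, was at 149, 142 and 112 normalized counts in restimulated iTregs and at 5610.1, 7313 and 7226 in activated tTregs. Neuropilin 1 (Nrp1), a surface protein typical of tTregs, was at 146, 139 and 144 normalized counts in restimulated iTregs and at 3567, 2919 and 4067 in activated tTregs. Itgb8, the integrin subunit with which Tregs release TGF-β from its latent form, was at 14.1, 15.7 and 11.8 normalized counts in restimulated iTregs and at 1219, 1494 and 1279 in activated tTregs. Each of these genes was far lower in every restimulated iTreg library, by 50.0 times for Ikzf2 (log2 fold change -5.63 ± 0.15 SE, adjusted p = 2.42e-11), 24.6 times for Nrp1 (log2 fold change -4.60 ± 0.13 SE, adjusted p = 3.12e-11) and 96.0 times for Itgb8 (log2 fold change -6.49 ± 0.18 SE, adjusted p = 3.67e-11). In activated Tconvs the means of these 3 genes were 138, 223 and 13.9, beside 134, 143 and 13.9 in restimulated iTregs. The receptors Klrg1 and Il1rl1 (ST2), which mark differentiated tissue Tregs, were lower as well, with 4.28 ± 1.91 (SD, n = 3) against 250.1 ± 39.6 for Klrg1 and 7.02 ± 1.72 against 197 ± 33.9 for Il1rl1.

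Genes of the suppressive machinery divided. Lrrc32 (GARP), which displays latent TGF-β on the Treg surface, was at 798, 824 and 676 normalized counts in restimulated iTregs and at 6483, 4923 and 5633 in activated tTregs. Nt5e (CD73), which makes adenosine, was at 689.9, 774 and 765 normalized counts in restimulated iTregs and at 4247, 4936 and 4864 in activated tTregs. Both were lower in every restimulated iTreg library, 7.42 times for Lrrc32 (log2 fold change -2.89 ± 0.14 SE, adjusted p = 3.6e-09) and 6.30 times for Nt5e (log2 fold change -2.65 ± 0.11 SE, adjusted p = 7.67e-10). Ctla4, which removes costimulatory ligands from antigen-presenting cells, was at 2316, 2097 and 2129.8 normalized counts in restimulated iTregs and at 1853, 2899 and 1789 in activated tTregs. These values overlapped, with the second tTreg library above every iTreg library and the others below (log2 fold change 0.04 ± 0.17 SE, adjusted p = 0.864). Icos (-0.10, adjusted p = 0.481) and Tnfrsf9 (-0.31, adjusted p = 0.166), both costimulatory receptors, did not pass the test either, and Tnfrsf9 was again highest in the second tTreg library, at 5187, 9078 and 5616 in the 3 activated tTreg libraries.

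Of the Treg list 3 members were higher in restimulated iTregs. Il10, the suppressive cytokine also made by helper T cells, was at 186, 139 and 148 normalized counts in restimulated iTregs and at 6.73, 7.57 and 7.27 in activated tTregs. The groups were far apart (21.9 times higher, log2 fold change 4.27 ± 0.38 SE, adjusted p = 6.63e-07). Il2ra, the high-affinity IL-2 receptor chain CD25, was at 9371, 9601 and 9824 normalized counts in restimulated iTregs and at 6001, 7299 and 6169 in activated tTregs, which placed all iTreg libraries above all tTreg libraries by a narrow margin (1.48 times, log2 fold change 0.57 ± 0.11 SE, adjusted p = 0.000505), a call lost under quantile normalization (0.38). The protease inhibitor gene Cst7 was 4.40 times higher (log2 fold change 2.16 ± 0.14 SE, adjusted p = 5.21e-08). Over the Treg list as a whole, 20 of 29 tested members (69.0%, against 28.3% of all genes) were lower, 3 (10.3%) were higher and 6 passed neither way, with a median log2 fold change of -1.54. Areg, the remaining member, was too low to test.

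**Figure D1:**
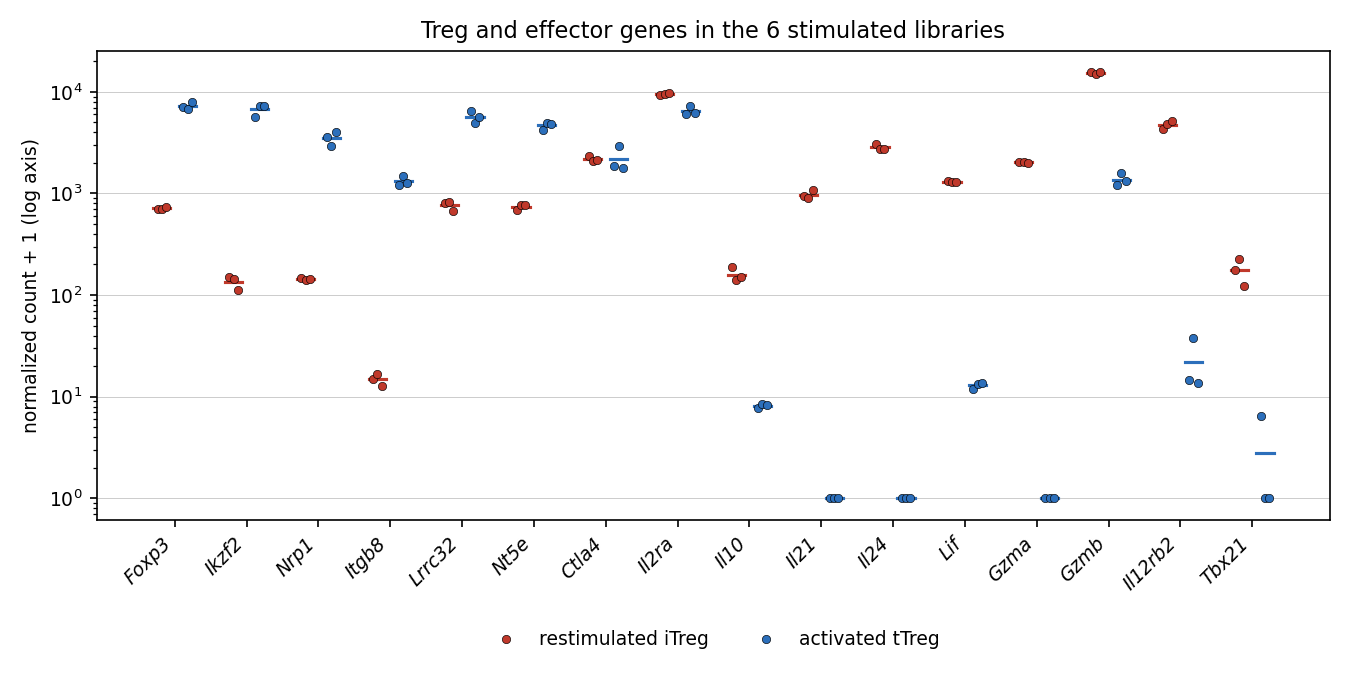
Normalized count + 1 (log axis) of 16 Treg and effector genes in each of the 3 restimulated iTreg libraries (red) and the 3 activated tTreg libraries (blue), with a line at the mean of each group. Foxp3, Ikzf2, Nrp1, Itgb8, Lrrc32 and Nt5e were lower in all restimulated iTreg libraries, Ctla4 overlapped, and the cytokine, granzyme and Th1 genes from Il10 to Tbx21 were higher, with Il21, Il24 and Gzma at 0 reads in activated tTregs.

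Several cytokine transcripts were at or near 0 in activated tTregs and abundant in restimulated iTregs. Il21, which drives T follicular helper and Th17 responses, lies at chr3:37222759-37232636 and was at 936, 893 and 1084 normalized counts in restimulated iTregs and at 0, 0 and 0 in activated tTregs. Il24, an IL-10 family cytokine gene near Il10 on chromosome 1 (chr1:130882074-130887454), was at 3071, 2719.8 and 2713 normalized counts in restimulated iTregs and at 0, 0 and 0 in activated tTregs. No read of either gene was found in activated tTregs. Against a floor of 3 reads per library Il21 was at least 236-fold and Il24 at least 689.8-fold higher in restimulated iTregs. In activated Tconvs the means were 30.9 for Il21 and 1.23 for Il24, also far below restimulated iTregs. Lif, a cytokine that counteracts Th17 differentiation, was at 1334, 1283 and 1299.7 normalized counts in restimulated iTregs and at 10.8, 12.3 and 12.7 in activated tTregs, 109 times higher in restimulated iTregs (log2 fold change 6.66 ± 0.14 SE, adjusted p = 2.86e-12). The chemokine genes Ccl20 and Ccl4 were each above 100 normalized counts in every restimulated iTreg library and below 10 in every activated tTreg library.

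The cytokines of the classical helper lineages were present at low levels. Ifng (Th1) was at 13.1, 19.1 and 18.2 normalized counts in restimulated iTregs and at 0, 0.946 and 0 in activated tTregs. Il4 (Th2) was at 27.2, 30.3 and 23.6 normalized counts in restimulated iTregs and at 0, 0.946 and 0 in activated tTregs. Il9 was at 38.3, 32.5 and 28.2 normalized counts in restimulated iTregs and at 0, 0 and 0 in activated tTregs. All 3 genes were higher in every restimulated iTreg library (adjusted p = 0.000291, 7.24e-06 and 2.74e-07), but their levels in restimulated iTregs stayed under 40 normalized counts, and 25.9% of the exon bases of Ifng are shared with an overlapping gene. Il2, Il17a, Il17f, Il5, Il13 and Il22 were too low in both groups to test. Tnf, at 456, 410.2 and 419.6 normalized counts in restimulated iTregs and at 474, 468 and 503 in activated tTregs, was below the threshold (log2 fold change -0.17 ± 0.09 SE, adjusted p = 0.112). Osm and Tgfb1 were lower in restimulated iTregs (log2 fold change -0.71 and -0.95), and Tgfb3, another TGF-β isoform, was higher (4.19, adjusted p = 5.96e-05), from 4.31 ± 3.82 to 68.8 ± 6.42. Of 29 listed cytokine genes 12 were too low to test, 12 were higher, 3 were lower and 2 neither. Among the 12 higher genes 9 had passed the filter through restimulated iTregs only, and of the 8 that reached 10 normalized counts in both groups 3 were higher and 3 lower. No direction of the list as a whole is therefore read from these counts.

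Cytotoxic effector genes differed in both directions. Gzma, encoding granzyme A (chr13:113093825-113100981), was at 2057, 2035 and 1995 normalized counts in restimulated iTregs and at 0, 0 and 0 in activated tTregs, at least 494-fold higher. Its mean in activated Tconvs was 6.85. Gzmb, the granzyme through which Tregs as well as killer cells induce death of targets, was at 15548, 14984 and 15658 normalized counts in restimulated iTregs and at 1199.9, 1571 and 1339 in activated tTregs, 11.2 times higher with no overlap (log2 fold change 3.50 ± 0.13 SE, adjusted p = 3.81e-10). Fasl, the ligand of the death receptor Fas, was at 168, 151 and 173 normalized counts in restimulated iTregs and at 4.04, 11.4 and 20.0 in activated tTregs (log2 fold change 3.91 ± 0.41 SE, adjusted p = 3.23e-06). The lectin receptors Klrk1 (NKG2D) and Klrd1 (CD94), usual on natural killer and CD8 T cells, had no read in activated tTregs and means of 83.0 and 49.4 in restimulated iTregs, at least 20.2-fold and 12-fold higher. Cd8a and Cd8b1, genes of CD8 T cells, summed to 99.0 to 117 in restimulated iTregs and to 105 to 159.9 in activated tTregs. Most of this was Cd8b1 (means 98.8 and 120.9), with Cd8a at means of 6.78 and 8.38. Which cells the Klrk1 and Klrd1 reads came from was not tested. Perforin (Prf1), the pore-forming protein granzymes need to enter cells, was lower in restimulated iTregs, at 13.1, 19.1 and 17.3 normalized counts in restimulated iTregs and at 43.1, 39.7 and 40.0 in activated tTregs (log2 fold change -1.28 ± 0.24 SE, adjusted p = 0.000382), as were Gzmc (-1.60) and Tnfsf10 (-1.96), which encodes the death ligand TRAIL. Of 16 tested members 10 (62.5%) were higher and 4 (25%) lower, and 6 further genes were too low to test. With the 4 members that passed the filter through restimulated iTregs only set aside, 6 of 12 were higher and 4 lower.

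Receptors and factors that set the helper lineage were mixed. Il12rb2, the inducible chain of the IL-12 receptor, was at 4260.4, 4793 and 5176 normalized counts in restimulated iTregs and at 13.5, 36.9 and 12.7 in activated tTregs. Its values did not come close to each other (226 times higher, log2 fold change 7.92 ± 0.34 SE, adjusted p = 1.1e-09), although 40.0% of its exon bases are shared with a neighbouring gene. Tbx21, encoding the Th1 master regulator T-bet, was at 175, 226 and 123 normalized counts in restimulated iTregs and at 5.39, 0 and 0 in activated tTregs (log2 fold change 6.52 ± 0.65 SE, adjusted p = 1.86e-06). The partner chain Il12rb1 was 5.06 times higher. In activated Tconvs the means were 1037 for Il12rb2 and 172 for Tbx21.

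Several receptors for inflammatory cytokines were instead lower in restimulated iTregs. Il6st, the gp130 chain of the IL-6 receptor, was at 181, 189 and 154 normalized counts in restimulated iTregs and at 1677, 1829 and 1849 in activated tTregs. Ifngr1, the ligand-binding chain of the interferon-γ receptor, was at 2371, 2452 and 2637 normalized counts in restimulated iTregs and at 15845, 17641 and 18012 in activated tTregs. Both were lower in every restimulated iTreg library (10.2 times, adjusted p = 2.67e-10, and 6.90 times, adjusted p = 5.05e-11). The IL-18 receptor gene Il18r1 was 10.2 times lower, and the IL-10 receptor gene Il10rb, with 14.9% of its exon bases shared, was 2.80 times lower. Gata3, the Th2 regulator that tTregs also use, was at 1406, 1382 and 1204 normalized counts in restimulated iTregs and at 3897, 2791 and 3953 in activated tTregs (log2 fold change -1.40 ± 0.14 SE, adjusted p = 1.45e-06). Stat3 (0.10, adjusted p = 0.514) and Il17ra (0.19, adjusted p = 0.222) overlapped between the groups. Of 33 lineage factors and receptors tested, 10 (30.3%) were higher, 16 (48.5%) lower and 7 neither.

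Transcription factors induced through the T cell receptor moved in both directions. Batf3, a partner of AP-1 and IRF factors (chr1:191097847-191108945), was at 847, 835 and 808 normalized counts in restimulated iTregs and at 0, 0 and 0 in activated tTregs, at least 202-fold higher. Irf4, which scales with the strength of receptor signalling, was at 5893, 5634 and 5622 normalized counts in restimulated iTregs and at 335, 472 and 354 in activated tTregs, 14.8 times higher (log2 fold change 3.90 ± 0.16 SE, adjusted p = 8.14e-10). Atf3, a stress-inducible bZIP factor, was at 652, 710.5 and 749 normalized counts in restimulated iTregs and at 13.5, 16.1 and 21.8 in activated tTregs (log2 fold change 5.31 ± 0.32 SE, adjusted p = 2.02e-08). The restimulated iTreg libraries exceeded the tTreg libraries for each of these, and activated Tconvs had means of 4309 for Irf4, 210.1 for Atf3 and 12.3 for Batf3. Rel, the NF-κB subunit c-Rel required for thymic Treg development, was at 177, 146 and 164 normalized counts in restimulated iTregs and at 3960.5, 3523 and 4434 in activated tTregs, 24.5 times lower in restimulated iTregs (log2 fold change -4.60 ± 0.10 SE, adjusted p = 7.35e-12). Nr4a1, a reporter of receptor signalling that also sustains Foxp3, was at 66.5, 71.7 and 62.7 normalized counts in restimulated iTregs and at 320.5, 259 and 299.7 in activated tTregs (log2 fold change -2.11 ± 0.13 SE, adjusted p = 3.08e-08), and the exhaustion-linked factor Tox was 8.74 times lower. Among 26 tested factors 10 (38.5%) were higher, 7 (26.9%) lower and 9 neither, which is near the shares over all genes, with a median of 0.32.

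The lower level of Rel was shared by most NF-κB genes. Of 24 tested subunits, inhibitors and adaptors 15 (62.5%, against 28.3%) were lower, 2 (8.33%) higher and 7 neither, with a median of -0.87. Nfkbia, encoding the inhibitor IκBα, was at 1722, 1727 and 1806 normalized counts in restimulated iTregs and at 7171, 4828 and 6378 in activated tTregs (log2 fold change -1.79 ± 0.14 SE, adjusted p = 1.66e-07), and the kinase gene Ikbke was 5.68 times lower. Malt1, an adaptor protease, was 1 of the 2 exceptions, at 624, 609.6 and 653 normalized counts in restimulated iTregs and at 241, 269 and 269 in activated tTregs (log2 fold change 1.28 ± 0.14 SE, adjusted p = 4.19e-06), the other being Bcl3 (0.92).

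Genes of calcium entry, calcineurin and NFAT, the pathway the study followed, differed in both directions. Orai1, the channel pore, was at 126, 93.0 and 114 normalized counts in restimulated iTregs and at 108, 96.5 and 119.9 in activated tTregs, values that overlapped (log2 fold change 0.03 ± 0.19 SE, adjusted p = 0.88). Stim1, the calcium sensor of the endoplasmic reticulum that opens ORAI channels, was at 698, 675 and 660.3 normalized counts in restimulated iTregs and at 1240.3, 976 and 1152 in activated tTregs, and was lower in every restimulated iTreg library (1.66 times, log2 fold change -0.72 ± 0.13 SE, adjusted p = 0.000247). Nfatc2, a factor dephosphorylated by calcineurin, was at 822, 777 and 820.1 normalized counts in restimulated iTregs and at 492, 416 and 403 in activated tTregs and was higher (1.84 times, log2 fold change 0.89 ± 0.10 SE, adjusted p = 5.05e-06), while Nfatc1 overlapped (-0.20, adjusted p = 0.107). Ppp3r1, the regulatory subunit of calcineurin, was 4.98 times higher, with 14.3% of its exon bases shared, and the plasma membrane calcium pump gene Atp2b4 was 3.23 times higher. The potassium channel gene Kcna3, whose current sustains calcium entry, and the ryanodine receptor gene Ryr2 were lower, with 11.5 ± 4.32 against 60.6 ± 11 for Kcna3 and 2.29 ± 1.31 against 33.7 ± 10.3 for Ryr2. Of 31 tested genes 6 (19.4%) were higher, 12 (38.7%) lower and 13 neither, with a median of -0.32. The receptor-proximal genes were alike in this, with 4 higher, 12 lower and 17 neither of 33, Themis (7.26 times higher) and Pag1 (4.08 times lower) being the extremes and Cd28 (0.15, adjusted p = 0.292) below the threshold.

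**Figure D2:**
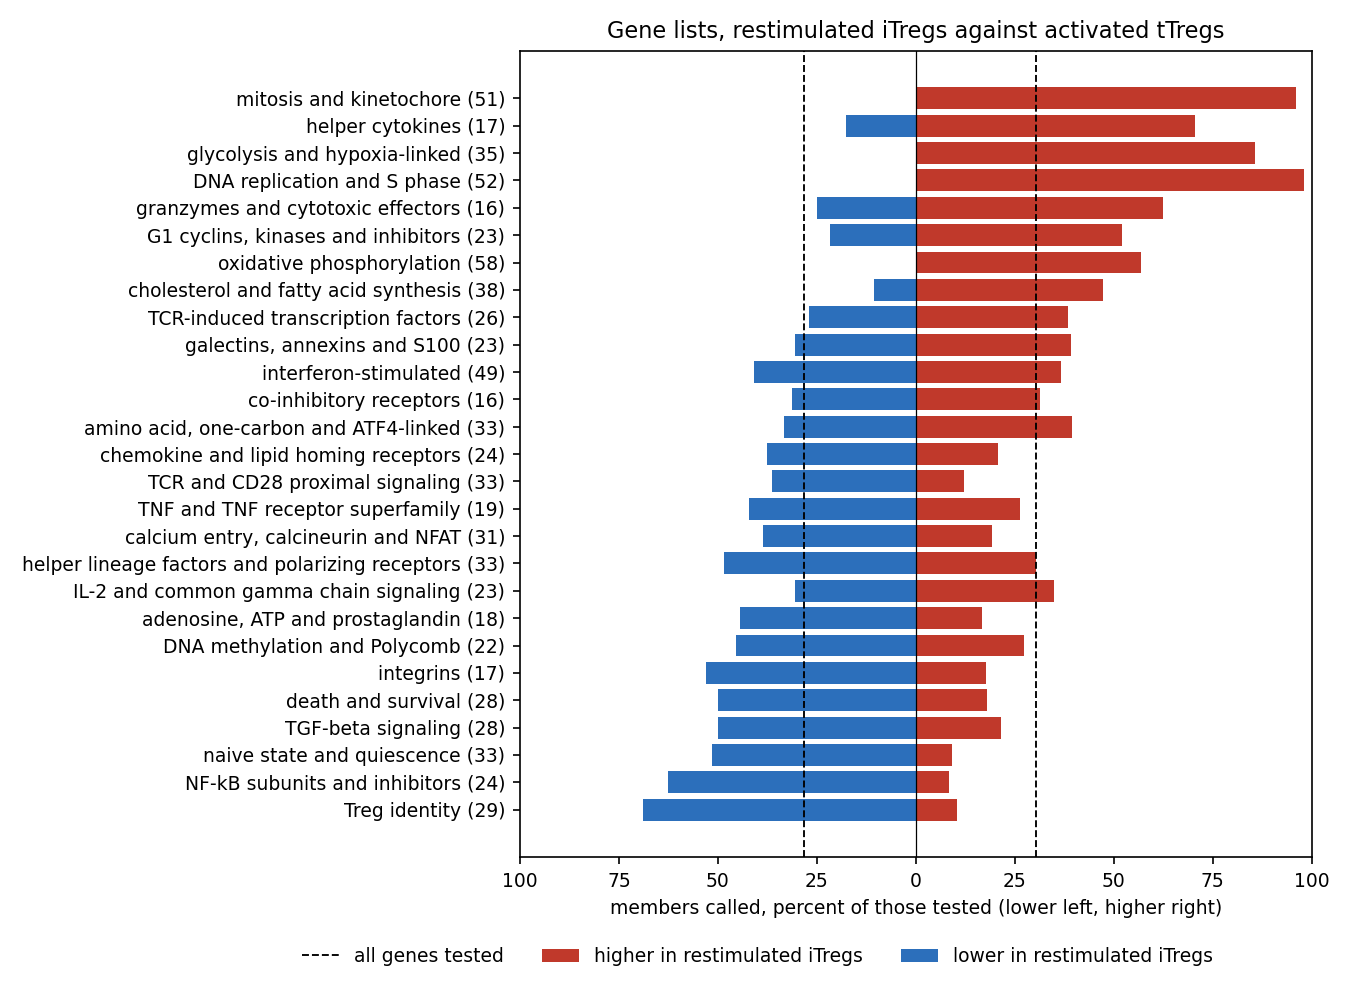
Share of the tested members of each gene list (number tested in brackets) that was higher (red, right) or lower (blue, left) in restimulated iTregs than in activated tTregs, ordered by the median log2 fold change, with dashed lines at the shares over all tested genes, 30.3% and 28.3%. Replication, mitosis and glycolysis lists exceeded the background to the right, with 51 of 52, 49 of 51 and 30 of 35 members higher, and Treg identity and NF-κB lists exceeded it to the left, with 20 of 29 and 15 of 24 lower. In the helper cytokine list 9 of 17 members passed the filter through restimulated iTregs only.

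Inhibitory and costimulatory receptors gave no single direction. Pdcd1 (PD-1) was at 310.2, 239 and 268 normalized counts in restimulated iTregs and at 1033, 1764 and 1008 in activated tTregs, lower in all restimulated iTreg libraries (log2 fold change -2.17 ± 0.22 SE, adjusted p = 1.81e-06). Tigit was 10.1 times lower (log2 fold change -3.31 ± 0.18 SE, adjusted p = 7.7e-09). Lag3 was at 1494, 1263 and 1212 normalized counts in restimulated iTregs and at 377, 269 and 398 in activated tTregs, higher in all of them (log2 fold change 1.94 ± 0.42 SE, adjusted p = 0.00129). The collagen receptor gene Lair1 was 30.4 times higher (log2 fold change 4.78 ± 0.25 SE, adjusted p = 5.35e-09). The inhibitory list thus held 5 higher, 5 lower and 6 neither of 16, with a median of 0.06 that became -0.03 under quantile normalization and without the first activated tTreg library. In the TNF superfamily Tnfsf14 (LIGHT) and Tnfsf4 (OX40L), ligands of activated T cells, were higher (3.25 and 2.95), whereas Tnfrsf1b (TNFR2), a receptor that expands Tregs, was 4.34 times lower and Tnfrsf25 (DR3) 5.05 times lower. That list held 5 higher, 8 lower and 6 neither of 19.

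Homing receptors separated the groups by gene. Ccr6, the receptor of Ccl20 and a marker of Th17 cells and effector Tregs, was at 1.01, 0 and 0.908 normalized counts in restimulated iTregs and at 121, 150.4 and 156 in activated tTregs, nearly without reads in restimulated iTregs (log2 fold change -6.51 ± 0.39 SE, adjusted p = 2.04e-08). Cxcr5, which guides cells to B cell follicles, was 10.1 times lower, and the integrin genes Itga4 and Itga6 were 14.0 and 8.18 times lower. Ccr8, a receptor of activated Tregs and Th2 cells, was at 1354, 1327 and 1317 normalized counts in restimulated iTregs and at 222, 264 and 285 in activated tTregs and was higher (5.18 times, log2 fold change 2.38 ± 0.10 SE, adjusted p = 9.85e-10). Cx3cr1 (13.8 times) and Gpr171 (13.1 times) were also higher. Ccr7, the lymph node homing receptor, was at 13066, 12226 and 12790.0 normalized counts in restimulated iTregs and at 13429, 10800.0 and 14719 in activated tTregs, and its values overlapped (log2 fold change -0.02 ± 0.12 SE, adjusted p = 0.88). The homing list held 5 higher, 9 lower and 10 neither of 24, and the integrin list 3 higher, 9 lower and 5 neither of 17, with CD44, the adhesion receptor of antigen-experienced T cells, 3.21 times higher.

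TGF-β signalling genes were more often lower in restimulated iTregs. The signalling receptor gene Tgfbr1 was at 300.1, 359 and 292 normalized counts in restimulated iTregs and at 1037, 1078 and 1173 in activated tTregs. Its partner Tgfbr2 was at 235, 254 and 265 normalized counts in restimulated iTregs and at 648, 744 and 638 in activated tTregs. Both lay lower in each restimulated iTreg library (3.46 and 2.69 times, adjusted p = 2.43e-08 and 1.25e-07). The co-receptor genes Tgfbr3 (betaglycan) and Eng (endoglin) were instead 8.38 and 27.0 times higher. Of 28 tested members 14 (50.0%) were lower, among them the co-repressor Tgif1 (6.32 times) and the inhibitory Smad7 (-1.15), 6 were higher and 8 neither. The median of -0.55 became -1.15 when only genes above 100 normalized counts were kept.

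IL-2 signalling was near the background shares, with 8 higher, 7 lower and 8 neither of 23. The transducers Stat5a and Stat5b, which IL-2 uses to sustain Foxp3, were lower (2.54 and 2.43 times, adjusted p = 1.74e-07 and 1.85e-06), as was Jak1 (2.29 times). The kinase gene Pim2 was 4.12 times higher, and Il7r, the survival receptor of naive and memory cells, did not pass the test (-0.25, adjusted p = 0.105).

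Genes of the naive and quiescent state were more often lower in restimulated iTregs, 17 of 33 (51.5%), with 3 higher and 13 neither. Klf2, which maintains quiescence and recirculation, was at 20.1, 30.3 and 15.4 normalized counts in restimulated iTregs and at 319, 233 and 252 in activated tTregs. Its relative Klf3 was at 47.3, 38.1 and 31.8 normalized counts in restimulated iTregs and at 729, 863 and 832 in activated tTregs. Id3, an inhibitor of E proteins that supports Foxp3 maintenance, was at 124, 113 and 119.9 normalized counts in restimulated iTregs and at 1698, 1269 and 1513 in activated tTregs. None of the values overlapped (12.2 times lower for Klf2, 20.7 times for Klf3 and 12.6 times for Id3, adjusted p = 4.53e-08, 1.76e-10 and 1.53e-10). S1pr1, which directs cells out of lymph nodes, was 4.76 times lower, and Tcf7 was 1.99 times lower. Igfbp4, listed here with the naive T cell signature, was an exception. It was at 6878, 7772 and 6156 normalized counts in restimulated iTregs and at 171, 88.9 and 114 in activated tTregs (log2 fold change 5.83 ± 0.28 SE, adjusted p = 3.4e-09). Its mean was also high in activated Tconvs, at 6454, so its level here does not mark a naive state. Satb1 was another exception (3.11 times higher). Ms4a4b, a T cell membrane protein gene, was 18.6 times lower and Sema4a, a semaphorin gene, 11.8 times higher.

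Cell cycle genes differed almost wholly in 1 direction. Of 51 mitosis and kinetochore genes 49 (96.1%, against 30.3% of all genes) were higher in restimulated iTregs, with a median log2 fold change of 4.05. Top2a, the topoisomerase that resolves replicated chromosomes, was at 10843, 11131 and 11335 normalized counts in restimulated iTregs and at 540.0, 637 and 659 in activated tTregs, 18.1 times higher (log2 fold change 4.18 ± 0.10 SE, adjusted p = 1.32e-11). Mki67, the Ki-67 antigen of cycling cells, was at 2980.3, 2777 and 2909 normalized counts in restimulated iTregs and at 229, 267 and 278 in activated tTregs (11.2 times, log2 fold change 3.48 ± 0.13 SE, adjusted p = 3.49e-10). Cyclin A2 (Ccna2), with 12.5% of its exon bases shared, was at 3321, 3999.6 and 3147 normalized counts in restimulated iTregs and at 74.1, 23.7 and 9.08 in activated tTregs, so that activated tTregs differed widely among themselves while all of them stayed far below the iTregs (log2 fold change 7.03 ± 0.51 SE, adjusted p = 1.09e-07). The 2 members that did not pass both thresholds were Bub3, a checkpoint protein gene (0.44, adjusted p = 0.000368), and Cdc25b, a phosphatase gene (-0.07, adjusted p = 0.598).

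DNA replication genes were also higher, 51 of 52 (98.1%), with a median of 2.03. Ccne1, the cyclin that starts S phase, was at 902, 1021 and 580.4 normalized counts in restimulated iTregs and at 22.9, 27.4 and 30.9 in activated tTregs (30.8 times, log2 fold change 4.87 ± 0.32 SE, adjusted p = 4.4e-08), and Tk1 and Rrm2, which supply deoxynucleotides, were 15.3 and 14.8 times higher. Mcm6, a subunit of the replicative helicase, was at 10085, 10669 and 11373 normalized counts in restimulated iTregs and at 8279, 5393 and 8270.4 in activated tTregs. It was the member that did not pass (log2 fold change 0.58 ± 0.28 SE, adjusted p = 0.0856), with the second activated tTreg library well below the others. Among regulators of G1, 12 of 23 were higher, 5 lower and 6 neither. The cyclin-dependent kinase inhibitor Cdkn1b (p27), a brake of quiescent cells, was at 668, 710.5 and 719 normalized counts in restimulated iTregs and at 2727, 2127 and 2352 in activated tTregs and was lower (3.44 times, log2 fold change -1.77 ± 0.09 SE, adjusted p = 7.25e-09). The inhibitor Cdkn1a (p21), induced by p53 and by growth signals, was at 4162, 3772 and 4242 normalized counts in restimulated iTregs and at 442, 434 and 365 in activated tTregs and was higher (9.81 times, log2 fold change 3.29 ± 0.10 SE, adjusted p = 5.47e-11). The D-type cyclin Ccnd2 stayed below the fold threshold (0.39).

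Promoters of mitosis genes are known to carry the cell cycle genes homology region (CHR), the element TTTGAA through which the DREAM and MuvB complexes act. It was searched on both strands in the 250 bases before each RefSeq gene start (build GRCm38.p6), and its last letters can be the first of the interferon element described further on. It was present in 37.5% of 48 windows of 43 mitosis genes and in 10.7% of 11326 windows of tested genes. Of the 16 mitosis genes with a match 15 were higher in restimulated iTregs, as were 41 of the 43 with a window. The windows of Ccnb2 (cyclin B2, chr9:70421555-70421804, minus strand) and Cdk1 (its kinase partner, chr10:69352913-69353162, minus strand) are shown because both genes were among the highest of the list. The letters TTTGAA, on either strand, are in capitals, 167 bases before the start in Ccnb2 and 71 and 15 bases before it in Cdk1. Whether these matches act as a CHR was not tested.
Ccnb2: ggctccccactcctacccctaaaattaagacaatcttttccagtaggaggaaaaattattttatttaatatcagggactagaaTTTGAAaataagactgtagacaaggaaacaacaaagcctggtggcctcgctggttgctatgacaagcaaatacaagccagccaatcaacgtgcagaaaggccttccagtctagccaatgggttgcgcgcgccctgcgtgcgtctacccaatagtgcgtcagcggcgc
Cdk1: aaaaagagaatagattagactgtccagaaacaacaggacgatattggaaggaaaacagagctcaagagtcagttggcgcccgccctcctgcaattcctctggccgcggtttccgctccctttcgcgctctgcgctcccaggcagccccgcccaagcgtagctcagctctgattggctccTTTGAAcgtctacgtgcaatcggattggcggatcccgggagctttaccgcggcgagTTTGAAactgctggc
Ccnb2 was at 2488, 2495 and 2761 normalized counts in restimulated iTregs and at 67.3, 65.3 and 87.2 in activated tTregs (35.2 times, log2 fold change 5.13 ± 0.28 SE, adjusted p = 9.96e-09). Cdk1 was at 1945, 2016 and 2231 normalized counts in restimulated iTregs and at 78.1, 70.0 and 32.7 in activated tTregs (34.2 times, log2 fold change 5.17 ± 0.38 SE, adjusted p = 1.33e-07).

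Metabolic genes accompanied the cell cycle genes. Of 35 glycolysis and hypoxia-linked genes 30 (85.7%) were higher and 5 neither, with a median of 2.15. Pgk1, phosphoglycerate kinase, was at 36344, 36563 and 37256 normalized counts in restimulated iTregs and at 2849.5, 4268 and 2992 in activated tTregs, 10.9 times higher (log2 fold change 3.47 ± 0.14 SE, adjusted p = 5.6e-10). Hk2, the inducible hexokinase, was at 1927, 1966 and 1954 normalized counts in restimulated iTregs and at 159, 97.4 and 169 in activated tTregs (13.7 times, log2 fold change 3.81 ± 0.20 SE, adjusted p = 7.23e-09), and Ldha, which makes lactate, was 6.51 times higher. Gapdh, often used as a reference gene in T cell assays, was at 57739, 57867 and 53773 normalized counts in restimulated iTregs and at 6407, 9314 and 7516 in activated tTregs (7.29 times, log2 fold change 2.88 ± 0.12 SE, adjusted p = 1.03e-09). Egln3, an oxygen-sensing prolyl hydroxylase that is itself a target of hypoxia-inducible factors, was at 7434, 7740.3 and 8200.3 normalized counts in restimulated iTregs and at 106, 88.9 and 119.9 in activated tTregs (74.2 times, log2 fold change 6.21 ± 0.16 SE, adjusted p = 2.45e-11). P4ha2, a collagen prolyl hydroxylase subunit with the same regulation, was at 405, 426 and 409 normalized counts in restimulated iTregs and at 0, 0.946 and 0 in activated tTregs, with 1 read in activated tTregs in all (log2 fold change 8.37 ± 0.34 SE, adjusted p = 6.63e-10). The members that did not pass included Eno2, the neuronal enolase, at -0.43 (adjusted p = 0.057), which was called lower under quantile normalization (-0.59).

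The core of the hypoxia response element, ACGTGC, where hypoxia-inducible factors bind, was found on either strand in 26.1% of 46 windows of 32 glycolysis and hypoxia-linked genes and in 6.81% of windows of tested genes. Of the 12 listed genes with it 11 were higher in restimulated iTregs, and 28 of the 32 with a window were. The windows of Pgk1 (chrX:106186850-106187099, plus strand) and P4ha2 (chr11:54100674-54100923, plus strand) are shown as an abundant enzyme and as the member with the highest fold change, with these letters in capitals 132 and 78 bases before the start. The windows of Ccnb2 and Cdk1 above hold the same letters unmarked.
Pgk1: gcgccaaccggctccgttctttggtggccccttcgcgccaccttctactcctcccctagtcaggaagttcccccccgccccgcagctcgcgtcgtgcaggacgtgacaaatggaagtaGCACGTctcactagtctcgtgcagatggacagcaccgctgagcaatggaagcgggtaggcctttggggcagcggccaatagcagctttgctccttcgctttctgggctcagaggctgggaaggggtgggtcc
P4ha2: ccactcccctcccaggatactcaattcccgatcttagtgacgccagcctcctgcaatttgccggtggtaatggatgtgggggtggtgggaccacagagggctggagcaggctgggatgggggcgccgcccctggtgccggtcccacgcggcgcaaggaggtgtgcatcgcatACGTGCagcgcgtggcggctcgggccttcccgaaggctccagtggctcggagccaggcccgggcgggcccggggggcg
A match describes the letters of the window and not binding.

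Oxidative phosphorylation genes differed in the same direction by less, with 33 of 58 (56.9%) higher and 25 neither, a median of 0.63, and 8 higher when the log2 fold change had to exceed 1. Cytochrome c (Cycs) was 3.59 times higher (log2 fold change 1.85 ± 0.11 SE, adjusted p = 1.27e-08). Uqcrfs1, the Rieske protein of complex III, was at 5694, 5842 and 5846 normalized counts in restimulated iTregs and at 3079.8, 795 and 331 in activated tTregs, widely spread among activated tTregs, and its call (log2 fold change 2.63 ± 0.94 SE, adjusted p = 0.0237) was lost without any 1 of 5 libraries. In lipid synthesis 18 of 38 genes were higher and 4 lower. Scd1, the stearoyl-CoA desaturase, was at 557, 519 and 572 normalized counts in restimulated iTregs and at 0, 0.946 and 0 in activated tTregs, so nearly all its reads were in restimulated iTregs (log2 fold change 8.78 ± 0.26 SE, adjusted p = 5.37e-11). The desaturase gene Fads2 was 70.6 times higher (log2 fold change 5.83 ± 0.27 SE, adjusted p = 2.26e-09), while Mvk and Elovl6 were lower (-0.81 and -0.73). Amino acid and ATF4-linked genes were close to evenly split, 13 higher, 11 lower and 9 neither of 33. Vldlr, the VLDL receptor, was its highest at 367, 378 and 459 normalized counts in restimulated iTregs and at 1.35, 0 and 0 in activated tTregs, Shmt1 of the folate cycle was 5.86 times higher, and Trib3 and Glul were 2.97 and 3.02 times lower.

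**Figure D3:**
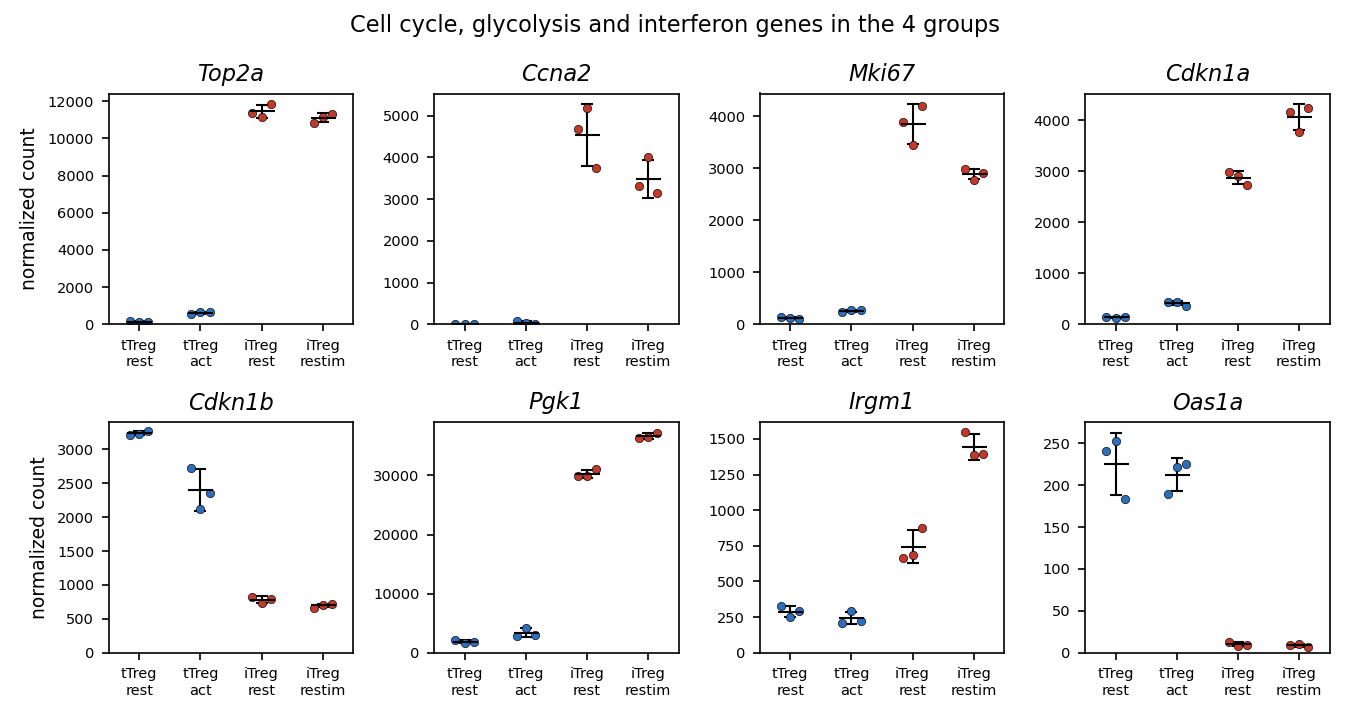
Normalized counts of 8 genes in each library of resting and activated tTregs (blue) and resting and restimulated iTregs (red), with bars for the mean ± SD of 3 libraries and each vertical axis starting at 0. The cycle genes Top2a, Ccna2 and Mki67, with Cdkn1a and Pgk1, were higher in both iTreg groups than in either tTreg group, Cdkn1b and Oas1a were lower, and Irgm1 was highest in restimulated iTregs.

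Interferon-stimulated genes were split, 18 higher (36.7%), 20 lower (40.8%) and 11 neither of 49, with a median of 0.10 that became -0.0058 under quantile normalization and -0.03 without the first restimulated iTreg library. Of the lower genes 7 had passed the filter through activated tTregs only, and the other 42 members held 18 higher and 13 lower. The lower group was led by the PYHIN genes, sensors of foreign DNA that lie side by side on chromosome 1. Ifi203 was at 5.04, 17.9 and 11.8 normalized counts in restimulated iTregs and at 1138, 1428 and 1491 in activated tTregs. Ifi209 was at 5.04, 11.2 and 18.2 normalized counts in restimulated iTregs and at 1038, 1735 and 1348 in activated tTregs. Ifi208 was at 0, 0 and 0.908 normalized counts in restimulated iTregs and at 148, 228 and 225 in activated tTregs. Nearly all reads of these genes were thus in activated tTregs (-6.89, -6.91 and -7.32 on the log2 scale, adjusted p = 1.7e-09, 7.54e-09 and 8.5e-08). The genes are close paralogs, and how the counting split reads between copies was not tested. Oas1a, an antiviral RNA synthetase, was at 9.06, 10.1 and 7.27 normalized counts in restimulated iTregs and at 189.9, 222 and 225 in activated tTregs, 24.1 times lower (log2 fold change -4.45 ± 0.21 SE, adjusted p = 2.58e-09), and Irf7, the amplifier of type I interferon responses, was 4.25 times lower.

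The higher interferon genes included GTPases that interferon-γ induces. Irgm1, which guards against intracellular microbes, was at 1551, 1388 and 1396 normalized counts in restimulated iTregs and at 210.1, 290.4 and 225 in activated tTregs, 5.97 times higher (log2 fold change 2.59 ± 0.15 SE, adjusted p = 1.27e-08). Its relative Iigp1 was at 2747, 2496 and 2503 normalized counts in restimulated iTregs and at 280.1, 381 and 341 in activated tTregs (7.72 times, log2 fold change 2.96 ± 0.16 SE, adjusted p = 6.94e-09). Gbp10 was 12.2 times higher, with 46.3% of its exon bases shared with neighbouring genes. Ly6a (Sca-1), a marker of activated T cells, was at 23071, 22199 and 21999 normalized counts in restimulated iTregs and at 912, 1059 and 877 in activated tTregs, 23.6 times higher (log2 fold change 4.57 ± 0.10 SE, adjusted p = 6.03e-12). Stat2 (0.12, adjusted p = 0.245) and Isg15 (0.38, adjusted p = 0.376) overlapped between the groups. In activated Tconvs Irgm1 was at 5995 and Oas1a at 103, the first above both Treg groups and the second between them.

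The interferon-stimulated response element (GAAAC, any base, then GAAA), bound by IRF factors and their complexes, was rare, in 0.583% of windows of tested genes, and occurred in 22.7% of 44 windows of 35 listed genes. The 10 listed genes that held it were divided like the list itself, 3 higher, 4 lower and 3 neither. The windows of Irgm1 (chr11:48871421-48871670, minus strand) and Oas1a (chr5:120907526-120907775, minus strand) are shown because the 2 genes differed in opposite directions. The element is in capitals on either strand, 24 and 14 bases before the start. Both windows also hold the letters TTTGAA of the CHR, on either strand, unmarked.
Irgm1: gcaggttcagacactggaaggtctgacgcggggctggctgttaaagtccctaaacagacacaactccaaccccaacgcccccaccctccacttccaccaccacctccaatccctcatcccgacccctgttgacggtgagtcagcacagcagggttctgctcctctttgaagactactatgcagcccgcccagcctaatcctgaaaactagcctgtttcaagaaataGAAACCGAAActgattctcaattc
Oas1a: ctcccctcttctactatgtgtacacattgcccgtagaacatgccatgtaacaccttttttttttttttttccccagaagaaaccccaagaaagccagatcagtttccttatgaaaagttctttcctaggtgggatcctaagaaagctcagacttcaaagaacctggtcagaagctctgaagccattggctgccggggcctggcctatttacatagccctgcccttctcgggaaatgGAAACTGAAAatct

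Smaller lists completed the picture. Among DNA methylation and Polycomb genes 6 of 22 were higher and 10 lower. Dnmt1, which copies methylation to new DNA strands, was at 3873, 3935 and 3912 normalized counts in restimulated iTregs and at 1559, 1488 and 1787 in activated tTregs (2.42 times, log2 fold change 1.28 ± 0.11 SE, adjusted p = 5.25e-07) and its guide Uhrf1 was 6.44 times higher. Tet2, an enzyme of demethylation that keeps the Foxp3 locus open in Tregs, was at 569, 512 and 608 normalized counts in restimulated iTregs and at 980.4, 1211 and 963 in activated tTregs and was lower (1.87 times, log2 fold change -0.90 ± 0.12 SE, adjusted p = 1.92e-05), as were the H3K27 demethylase Kdm6a (4.00 times) and the Polycomb gene Cbx7 (3.73 times). Death and survival genes were more often lower, 14 of 28 against 5 higher, Bcl2l11 (BIM), which limits Treg numbers, being 3.34 times lower and Bcl2 not passing the test (0.05, adjusted p = 0.666). Of 18 adenosine and prostaglandin genes 8 were lower and 3 higher. Adora2a, the adenosine receptor that sustains Foxp3, was 4.31 times lower and Adora2b 7.83 times higher. In the galectin, annexin and S100 list 9 of 23 were higher and 7 lower, with Lgals1, a galectin Tregs use in suppression, 4.64 times higher (log2 fold change 2.21 ± 0.09 SE, adjusted p = 6.22e-10) and Lgals8 4.27 times lower.

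The 12 genes highest in restimulated iTregs by the rule for named genes were Il24, Gzma, Il21, Batf3, Gap43, Scd1, Akr1c18, P4ha2, Vldlr, Upp1, Il12rb2 and H2-Ab1. Gap43, a growth-cone protein gene of neurons, was at 566, 424 and 441 normalized counts in restimulated iTregs and at 0, 0 and 0 in activated tTregs, at least 116-fold higher. Akr1c18, a steroid dehydrogenase that inactivates progesterone, was at 8863, 7526 and 7583 normalized counts in restimulated iTregs and at 17.5, 29.3 and 14.5 in activated tTregs (391 times, log2 fold change 8.60 ± 0.26 SE, adjusted p = 5.39e-11). Upp1, uridine phosphorylase, was at 553, 533 and 506 normalized counts in restimulated iTregs and at 1.35, 1.89 and 0 in activated tTregs (log2 fold change 8.13 ± 0.39 SE, adjusted p = 2.98e-09). The restimulated iTreg replicates of these genes lay close together and far from the tTregs. H2-Ab1, the β chain of an MHC class II molecule, was at 872, 853 and 876 normalized counts in restimulated iTregs and at 5.39, 1.89 and 3.63 in activated tTregs (238 times, log2 fold change 7.62 ± 0.45 SE, adjusted p = 1.76e-08). Its α chain H2-Aa was at 46.3, 29.1 and 32.7 normalized counts in restimulated iTregs and at 0, 0 and 0 in activated tTregs. The class II chaperone gene Cd74 was at 478, 505 and 474 normalized counts in restimulated iTregs and at 39.1, 77.6 and 65.4 in activated tTregs. Mouse T cells usually make little class II. The class II values moved with the groups, as did Ebf1 of the B cell list in the same direction and Zbtb46 and Cd79b in the other. Ly6g, a neutrophil antigen gene of the Ly6 cluster that holds Ly6a, was at 51.4, 69.5 and 73.6 normalized counts in restimulated iTregs and at 0, 0 and 0 in activated tTregs while the other 4 neutrophil markers stayed at no more than 3 reads.

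The 12 genes lowest in restimulated iTregs were Ltf, Cybrd1, Fam160a1, Ifi208, Ifi209, Ifi203, Rln3, Ccr6, Arhgap20, Itgb8, Sh3bgrl2 and Nod1. Ltf, the iron-binding protein lactoferrin, was at 0, 0 and 0 normalized counts in restimulated iTregs and at 291, 409 and 351 in activated tTregs, at least 115-fold higher in activated tTregs. Cybrd1, an iron reductase, was at 1.01, 2.24 and 1.82 normalized counts in restimulated iTregs and at 438, 573 and 499.5 in activated tTregs (298 times lower, log2 fold change -7.57 ± 0.24 SE, adjusted p = 1.08e-10). Rln3, a relaxin peptide gene, was at 10.1, 14.6 and 2.72 normalized counts in restimulated iTregs and at 909, 693 and 807 in activated tTregs (88.0 times lower, log2 fold change -6.53 ± 0.39 SE, adjusted p = 2.07e-08). Nod1, a sensor of bacterial cell walls, was at 13.1, 7.84 and 15.4 normalized counts in restimulated iTregs and at 1122, 795 and 1242 in activated tTregs (86.8 times lower, log2 fold change -6.35 ± 0.27 SE, adjusted p = 9.22e-10). In every case the highest restimulated iTreg library stayed far below the lowest tTreg library. In activated tTregs Cybb, a phagocyte oxidase gene of the myeloid list, was at 28.3, 92.7 and 78.1, while Lyz2, Csf1r and Cd14 were at no more than 3 reads in each library.

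Most of the genes called under stimulation were also called at rest. Between resting iTregs and resting tTregs 7023 of the same 11104 genes (63.2%) differed, 3702 (33.3%) higher and 3321 (29.9%) lower in iTregs. Of the genes higher in restimulated iTregs 2838 were higher at rest, 84.3% of the stimulated list and 76.7% of the resting list. Of the lower genes 2569 were lower at rest, 81.8% and 77.4% of the lists. Only 21 and 20 genes turned direction, and 506 higher and 553 lower genes were called under stimulation but not at rest. The Euclidean distance between group means over all tested genes was 160.8 on the log2 scale for the stimulated pair and 179.6 for the resting pair. Restimulated iTregs were 139.8 from activated Tconvs over the same genes. The filter used the restimulated iTreg and activated tTreg libraries only. It left out genes high in activated Tconvs alone, such as Dapl1, at 217 to 237 normalized counts there. The distance to Tconvs therefore cannot be ranked against the distance to tTregs.

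The change of the gap from rest to stimulation was itself tested by an interaction term, and 1850 genes (16.7%) passed, 746 (6.72%) with a shift toward iTregs and 1104 (9.94%) with a shift toward tTregs. The gap in Foxp3 shifted by -0.80 ± 0.12 SE on the log2 scale (adjusted p = 0.000756), from resting means in iTregs and tTregs of 1280.0 and 7537. The gap in Id3 shifted by -2.30 (adjusted p = 5.69e-06), from 626 in resting iTregs and 1571 in resting tTregs. The gaps in Il12rb2 (3.72, adjusted p = 0.000302) and Fasl (2.96, adjusted p = 0.00469) shifted toward iTregs, from resting iTreg means of 806 and 45.6. Those of Il21 (2.00, adjusted p = 0.000505) and Il24 (2.56, adjusted p = 0.000682) did so in limma but not in DESeq2 (adjusted p = 0.533 and 0.238), both genes being at or near 0 reads in resting as in activated tTregs. Their resting iTreg means were 242 and 618.

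For the cell cycle the gap was narrower under stimulation, in 46 of 51 mitosis genes and 32 of 52 replication genes. Top2a had means of 11457 in resting iTregs and 144 in resting tTregs, beside 11103 and 612 under stimulation, a shift of -2.13 (adjusted p = 2.39e-06). Interferon genes shifted toward iTregs in 20 of 49 cases, Gbp10 by 4.00 (adjusted p = 0.000113) and Iigp1 by 1.71 (adjusted p = 0.000313), with means of 37.0 and 1264 in resting iTregs. The median interferon difference was -0.81 at rest and 0.10 under stimulation. Ltf showed the opposite, a shift of -5.61 (adjusted p = 4.37e-06), with a mean of 12.2 in resting iTregs and no read in restimulated iTregs, beside 87.9 in resting and 350.1 in activated tTregs. Treg identity genes kept nearly the same median gap, -1.39 at rest and -1.54 under stimulation. Single members moved both ways, 7 of 29 toward tTregs and 3 toward iTregs, against 9.94% and 6.72% of all genes.

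**Figure D4:**
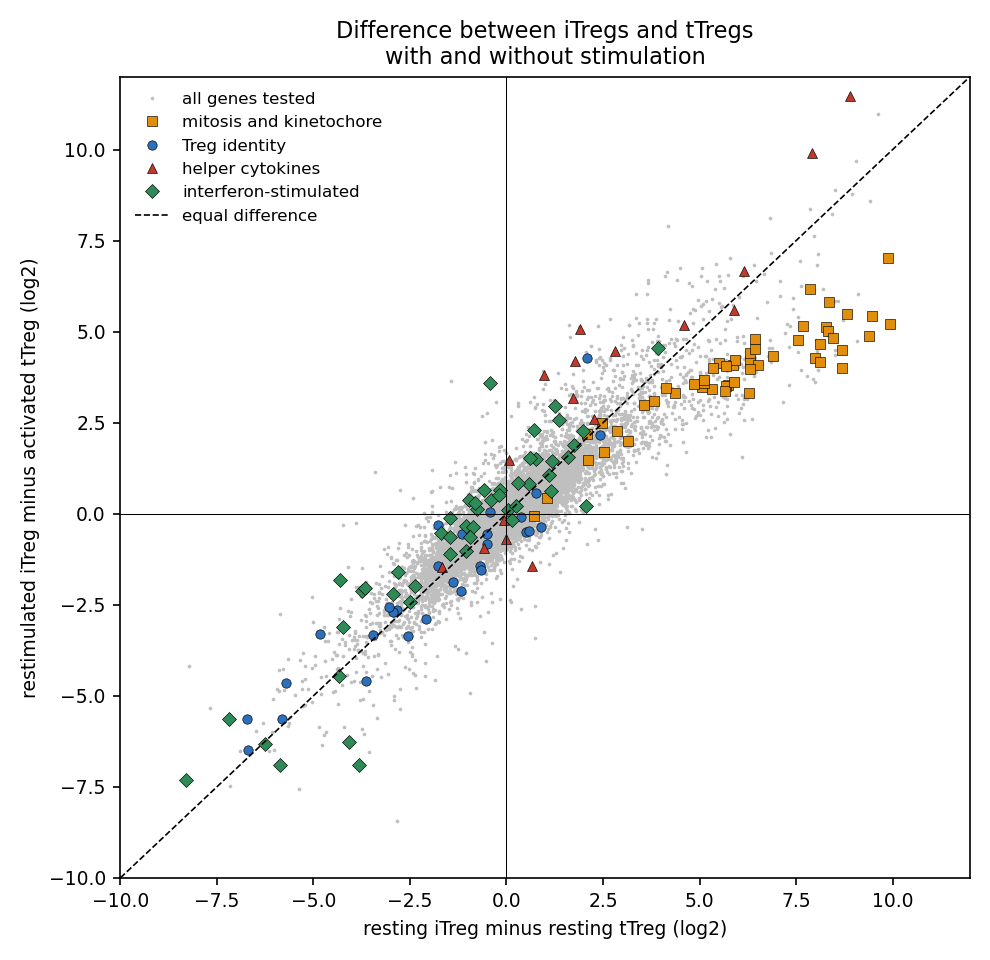
Log2 fold change of iTregs against tTregs at rest (horizontal) and under stimulation (vertical) for 11104 genes (grey), with mitosis, Treg identity, helper cytokine and interferon-stimulated genes marked and a dashed line where both are equal. Mitosis genes lie mostly below the line (median 5.92 at rest and 4.05 under stimulation). Treg identity genes had similar medians (-1.39 and -1.54), but 7 of 29 shifted toward tTregs and 3 toward iTregs.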

How the data were processed

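RNA-seq was analysed for 12 libraries, 3 each of restimulated iTregs, activated tTregs, resting iTregs and resting tTregs, out of 24 in the table. The 3 libraries of activated Tconvs gave values for comparison and were not in the main fit. According to the submitters' processing notes and methods, SMART-seq2 libraries without strand information were trimmed with cutadapt 1.18, aligned with STAR 2.5.3 to mm10 and counted with RSEM 1.3.0. The authors deposited normalized counts (a signal, not raw reads), gene counts divided by 1 size factor per library, whose estimation is not given in the sources used here. Every value was a whole multiple of the smallest value above zero in its library (tolerance 0.01), which returned whole counts per gene, called reads here. Whether the counts from RSEM were rounded before scaling is not given in the sources used here. A gene said to have no read is one without such a count. Without molecular identifiers, floors cover counting error only. PCR amplification before sequencing can widen the spread of low genes.

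Genes were fitted on log2(normalized count + 1) with limma 3.58.1 (R 4.3.3, trended variance) over the 12 libraries, 4 groups without covariates. Replicate numbers did not pair restimulated iTregs with activated tTregs (correlations of deviations 0.0765, -0.0517 and 0.120). Whether they pair other groups, such as resting with restimulated iTregs, was not tested, and a replicate block was an alternative fit. Fold changes of low genes are understated by the added 1, and folds named as times are ratios of group means. Genes listed at 0 in a group were compared with a floor of 3 reads per library. The fit was tested on simulated data in which few genes changed and all groups had the same spread, unlike in these libraries. That test therefore does not cover the unequal spread found here. Gene lists, members and comparisons were chosen with earlier results of these data known. Genes were named by a fixed rule (the 12 highest and 12 lowest called, non-overlapping genes with a mean of at least 100, the extremes of each list and genes the study names), and further list members were added after their values were seen. Shared exon bases came from GENCODE M21 on GRCm38, and promoter windows from RefSeq, where 8854 tested genes matched by symbol. Alternatives included edgeR 4.0.16 and DESeq2 1.42.0 on recovered reads.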

Additional observations from a re-analysis of the deposited data

Results flagged for a closer look

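The difference between iTregs and tTregs was not the same with and without stimulation for 1850 genes by the interaction term of the fit. Of these, 746 had a shift toward iTregs and 1104 a shift toward tTregs. The genes named in the report that passed this test are given here as the stimulated difference minus the resting difference on the log2 scale, positive where it shifted toward iTregs. Among Treg and suppression genes, Il10 by 2.17, Tigit by 1.51, Tnfrsf9 by 1.45 and Pdcd1 by 1.13 shifted toward iTregs. Foxp3 by -0.80, Lrrc32 by -0.81 and Nrp1 by -0.97 shifted toward tTregs. Among cytokine, cytotoxic and lineage genes, Il9 by 3.17, Fasl by 2.96, Il24 by 2.56, Il21 by 2.00, Gzma by 1.36 and Prf1 by 1.15 shifted toward iTregs. Osm by -0.70 and Gzmc by -3.00 shifted toward tTregs. Among cytokine receptors and their transducers, Il12rb2 by 3.72 and Stat2 by 0.87 shifted toward iTregs. Il10rb by -0.61 and Gata3 by -0.77 shifted toward tTregs. Among signalling, NF-κB and TNF superfamily genes, Tnfsf14 by 1.32, Malt1 by 1.17, Themis by 0.83, Nr4a1 by 0.75, Atp2b4 by 0.68 and Bcl3 by 0.67 shifted toward iTregs. Rel by -0.64, Tnfrsf1b by -0.93, Tnfrsf25 by -1.05 and Ikbke by -1.07 shifted toward tTregs. Among TGF-β, quiescence and homing genes, Tgfbr3 by 1.27, Gpr171 by 0.67 and Itga4 by 0.66 shifted toward iTregs. Ccr7 by -0.59, Klf3 by -0.72, Tgfbr1 by -1.03, Itga6 by -1.19, Ccr8 by -1.27, Klf2 by -1.47, Id3 by -2.30 and Igfbp4 by -2.69 shifted toward tTregs. Among mitosis and replication genes, Bub3 by -0.60, Cdc25b by -0.79, Cdkn1a by -1.08, Mki67 by -1.57, Mcm6 by -1.59, Tk1 by -1.78, Top2a by -2.13, Cdk1 by -2.53, Rrm2 by -2.57, Ccna2 by -2.84 and Ccnb2 by -3.15 shifted toward tTregs. Among metabolic and chromatin genes, Dnmt1 by -0.61, Lgals8 by -0.77, Gapdh by -0.98, Lgals1 by -1.24, Trib3 by -1.37, Adora2b by -1.41, Mvk by -1.62, Fads2 by -2.76 and Uhrf1 by -2.79 shifted toward tTregs. Among interferon genes, Gbp10 by 4.00, Iigp1 by 1.71, Irf7 by 1.61, Irgm1 by 1.23 and Ly6a by 0.63 shifted toward iTregs. Ifi203 by -3.07 shifted toward tTregs. Among the remaining named genes, Ly6g by 2.66 shifted toward iTregs. Sema4a by -1.48, Ms4a4b by -1.56, Nod1 by -1.58, Cybrd1 by -2.19, Rln3 by -2.97 and Ltf by -5.61 shifted toward tTregs. The shifts of Il21, Il24, Gzma and Ly6g rest on tTreg groups at or near 0 reads and passed in neither edgeR nor DESeq2, and that of Il9 did not pass in edgeR. Those of Il9 and Ly6g were also lost with a pseudocount of 0.1. The shifts of Tnfsf14, Bcl3, Itga4, Klf3, Lgals8 and Prf1 were lost with a replicate block and, like those of Adora2b and Ccr7, in 7 to 10 of the 12 fits that left out 1 library. The shift of Pdcd1 was lost in 4 of those fits (without the first restimulated iTreg, the first or the third activated tTreg or the second resting iTreg library), that of Atp2b4 in 3 (without the third restimulated, the first or the second resting iTreg library) and that of Dnmt1 in 1 (without the third resting tTreg library). Under quantile normalization those of Lrrc32, Adora2b, Ccr7, Lgals8 and Prf1 were lost. After thinning to equal depth those of Il10, Nod1, Rel, Bcl3, Itga4, Klf3, Lgals8, Prf1 and Tnfsf14 were lost. No explanation of these shifts was tested.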

How the results depend on the processing

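The count of 6507 genes called between restimulated iTregs and activated tTregs stayed within 1.5 times of itself under every alternative for the test, scaling, filter and pseudocount. It ranged from 6260 to 6533 when 1 library was left out (3242 to 3399 higher, 3012 to 3134 lower). It was 6511 with edgeR, 6440 with DESeq2, 6335 after thinning to equal depth and 7302 of 15712 without a filter. The exception was a log2 fold change above 1, which left 3888 genes, 2087 higher and 1801 lower. Quantile normalization moved the split to 3039 higher and 3470 lower. With a replicate block the count was 6460 (3332 higher, 3128 lower). The count of shifted gaps was 1594 with that block (593 higher, 1001 lower) and 1850 without it. The resting count ranged from 6794 to 7076 (3565 to 3736 higher, 3229 to 3340 lower) and the count of shifted gaps from 1361 to 2358 (507 to 1000 higher, 830 to 1358 lower) when 1 library was left out. Leaving out resting libraries was added after seeing the data. No named gene changed direction while called under any alternative. Tnfrsf9 passed only under quantile normalization (-0.52), Ltb only in a fit of the 6 stimulated libraries, and Mcm6 in 4 alternatives, by adjusted p down to 0.0120. Eno2 passed under quantile normalization (-0.59), without the second restimulated iTreg library (-0.57) and without the second activated tTreg library (-0.54), and Atp5a1 under quantile normalization (-0.89) and without the second activated tTreg library (-0.58). The call of Uqcrfs1 was lost in 5 fits that left out 1 library, with values of 1.89 to 2.65 and adjusted p of 0.0528 to 0.110. The median of the induced transcription factors was 0.62 without the first activated tTreg library. The median of the helper cytokines, 3.81, was 1.97 without a filter, 2.59 at a pseudocount of 5 and 5.46 at a pseudocount of 0.1. It was 3.17 with the 3 genes at 0 reads in activated tTregs set at their floor. Over the 8 members that reached 10 normalized counts in both groups it was -0.44, so no direction is read from these medians. The granzyme median, 1.78, was 0.58 without a filter and 0.43 over the 12 members at that level in both groups. The list medians of amino acid genes and of galectins, annexins and S100 genes, near 0 in the main fit, changed sign under some alternatives, and causes were not tested.

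The limits are the 3 libraries a group, the lower depth and wider spread of activated tTregs, an unstated duration of stimulation, and differences in donor age and culture that cannot be told apart from cell origin. Differences of genes near the floor of 3 reads were not detectable at this depth.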
